A study of Mus musculus with 22 samples.

Results

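RNA-binding proteins of the neural stem cell that set how long an mRNA lasts and how often it is translated were followed while the dose of the Musashi proteins was raised or lowered. The set was a fixed list of 38 gene symbols, looked up in the Ribo-Seq tables, which hold 23081 genes, and joined to the RNA-Seq files by Ensembl ID. All 38 had a Ribo-Seq row and 33 had an RNA-Seq row. Elavl4, Celf2, Lin28b, Fmr1 and Stau2 were measured by footprints only, and Ago2 stands in the files under its older symbol Eif2c2. Igf2bp1 had between 0 and 14 RNA-Seq reads in any library, so 32 members entered the tests.

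The cells were cortical NSCs (neural stem cells) cultured from mouse embryos of the 129SvJae strain. KH2 cells carry the R26-m2rtTA transactivator and no Musashi cDNA, and MSI1 and MSI2 cells add a tetO-driven Msi1 or Msi2 cDNA that Dox (doxycycline) switches on. C1 cells carry floxed Msi1 and Msi2 alleles and no Cre, and C4 cells carry the same floxed alleles with a tamoxifen-inducible Cre, which 4-OHT (4-hydroxytamoxifen) activates. At E12.5, RNA-Seq covered KH2, MSI1 and MSI2 cells with no Dox or with Dox at 1 µg/ml (72 h), and C1 and C4 cells with or without 4-OHT (48 h). At E13.5 it covered KH2 cells without Dox and MSI1 cells with and without Dox. Ribo-Seq, the sequencing of mRNA pieces protected by single ribosomes, covered KH2, MSI1, C1 and C4 cells with and without their agent at E12.5. Each condition was 1 library of 1 line. Untreated MSI1 cells at E13.5 were sequenced as technical replicates A and B, which were summed. The labels do not say how many embryos gave a line.

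Most of these proteins act on the 3′ UTR of their targets. Musashi proteins bind short UAG-containing sites and can lower or raise translation. The Zfp36 proteins bind AU-rich elements and recruit the deadenylase complex that Cnot1 scaffolds, whereas Hu (Elavl) proteins bind similar elements and stabilize the mRNA. Cpeb proteins control poly(A) tail length, Pumilio proteins repress, Igf2bp proteins protect bound mRNAs, and the fragile X proteins repress translation. Ptbp, Rbfox, Nova, Mbnl and Celf proteins are best known as splicing regulators. Rbm22 is a spliceosome protein that contacts the catalytic RNA core. Because such proteins also bind each other's transcripts, the question put to the data was whether a change of Musashi dose moved the other members.

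The 3′ UTRs of 37 of the 38 members (97.4%) held at least 1 copy of the Musashi pentamers GTAGT or ATAGT, searched on the sense strand of the longest annotated 3′ UTR, against 11521 of 19381 genes (59.4%). The members' UTRs were longer, with a median of 2680 bases against 932. Among genes whose UTR length lay within the quartiles of the members, 4386 of 4697 (93.4%) held the motif. The median density was 1.69 sites per 1000 bases in the members, 0.818 in all genes and 1.30 in the genes of similar length. The exception was Msi1, whose 3′ UTR of 1895 bases held 0 sites. Fxr1 (4.89 per 1000 bases), Mbnl2 (4.00) and Mbnl1 (3.25) were the densest. The Fxr1 value rests on 2 sites in 409 bases, whereas Mbnl2 and Mbnl1 held 11 sites each. Sites are given for Msi2 and Zfp36l2, which passed the test of Dox in MSI1 cells, and for Elavl3. With Dox, Elavl3 passed only the mRNA fold limit in 1 pair. Coordinates are NCBIM37 (mm9). The sites are all on the minus strand and are written 5′ to 3′ with the pentamer in capitals.
Msi2, chr11:88157853-88157877: atcacatttgGTAGTgatttttgac
Msi2, chr11:88157830-88157854: acttagtctgGTAGTcacccagctt
Zfp36l2, chr17:84584415-84584439: ttgccaccacGTAGTgtgggtgttt
Zfp36l2, chr17:84584348-84584372: agctcagttcATAGTtgttgggaaa
Elavl3, chr9:21821646-21821670: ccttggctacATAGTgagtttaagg
Elavl3, chr9:21820500-21820524: ttagcttcatGTAGTtttaacttat
Msi2 held 8 sites in 5310 bases, Zfp36l2 held 3 in 1822 bases and Elavl3 held 2 in 3498 bases. These are letter matches in the 3′ UTR, and binding was not measured here.

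**Figure D1:**
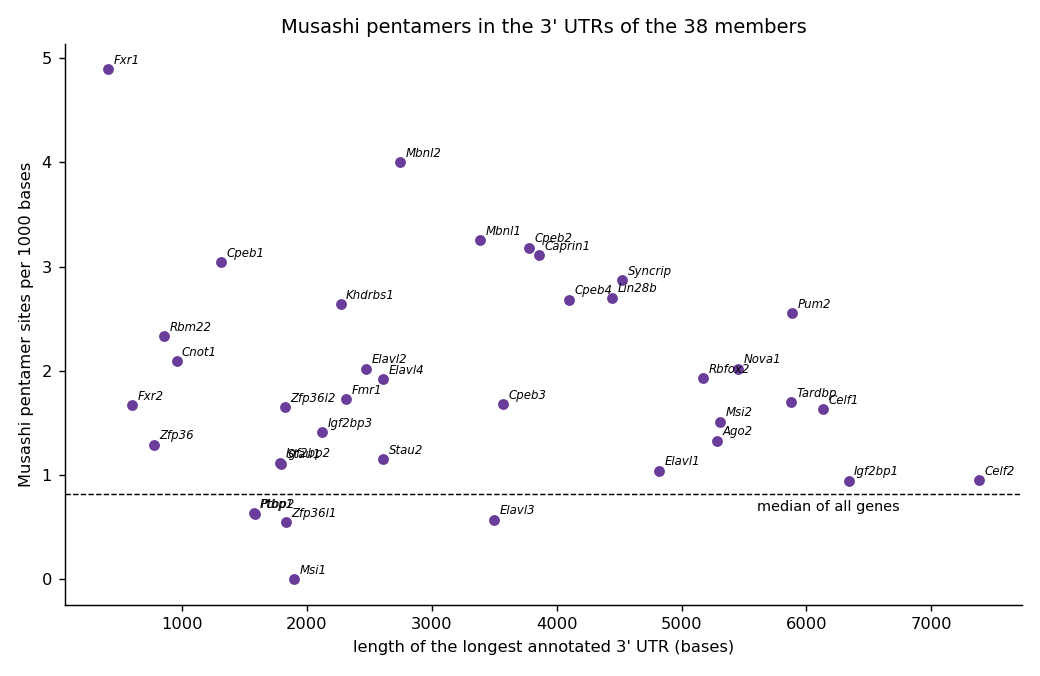
Length of the longest annotated 3′ UTR (bases) against the number of GTAGT or ATAGT matches per 1000 bases for the 38 members. Each point is 1 gene, and the dashed line is the median of all genes, 0.818. Most members lie above the line, and Msi1 lies at 0.

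The libraries differed in depth and in the share of reads that fell in counted genes. RNA-Seq libraries held 7889966 to 58435172 counts and Ribo-Seq libraries 657288 to 6381242. Counted reads made up 14.9 to 15.8% of the RNA-Seq reads in the 6 inducible E12.5 libraries and 28.2 to 34.1% in the others, so levels are compared across these sets only as RPKM of counted reads (RPKM computed with the sum of the library's counts as its number of reads). Within a treated and untreated pair, the deposited RPKM is used. Markers of neural stem cells were high throughout, with a summed level of 13800 to 17900 RPKM of counted reads over 7 genes. The 9 neuron markers summed to 38.1 to 80.5, the 4 microglia markers to 0.00 to 0.51, and the 6 mesenchymal or vessel markers to 0.837 to 3.03. The 6 astrocyte markers summed to 1340 to 2590, the 5 oligodendrocyte lineage markers to 1600 to 3220 and the 4 intermediate progenitor markers to 62.2 to 297. In bulk RNA, a change in the number of cells of one type and a change per cell cannot be told apart.

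The inducing genes were checked first. Msi1 mRNA (chr5:115879608-115905707, plus strand) stood at 19.7 RPKM without and 108 with Dox in MSI1 cells at E12.5, and at 50.5 and 208 at E13.5. In KH2 cells it stood at 20.5 without and 19.8 with Dox, and at 67.0 without Dox at E13.5. In MSI2 cells it was at 10.3 and 12.2. Msi1 was thus higher in both induced MSI1 libraries than in any other library, also as RPKM of counted reads. The RNA-Seq reads do not separate the cDNA from the endogenous gene. Msi2 mRNA (chr11:88152884-88579827, minus strand) went from 23.2 to 128 RPKM in MSI2 cells with Dox and stood at 29.9 and 31.5 in KH2 cells and at 51.0 in KH2 cells at E13.5. Deposited RPKM of the inducible lines at E12.5 and E13.5 do not share a scale, so they show no stage difference. The floxed lines showed the loss of Msi2 but not of Msi1 mRNA. Msi2 was at 39.5 in C4 cells and 4.54 after 4-OHT (log2 change -3.12, 95% counting interval -3.45 to -2.80), against 51.5 and 66.0 in C1 cells. Msi1 was at 9.46 and 9.42 in C4 cells (log2 change -0.01, -0.15 to 0.14) and at 27.0 and 23.2 in C1 cells. Msi1 footprints numbered 56 without and 20 with 4-OHT in C4 cells (log2 change -1.35) and 424 and 135 in C1 cells (-1.52), which lack Cre. Relative to the median of all genes in each pair these are -1.21 in C4 and -0.08 in C1 cells. The mRNA levels therefore show the loss of Msi2 in C4 cells and do not show that of Msi1. All intervals cover counting error only.

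When Msi1 was induced, Msi2 mRNA was lower. It stood at 31.6 RPKM without and 19.8 with Dox in MSI1 cells at E12.5 and at 55.4 and 25.4 at E13.5, and each induced library lay below the untreated library of its stage. In edgeR's quasi-likelihood test of 2 libraries against 2, with stage as a block, Msi2 fell by 0.98 on the log2 scale (SE 0.19, adjusted p = 6.65e-05). Footprints on Msi2 did not follow the mRNA: 104 reads without and 40 with Dox in the smaller library gave a footprint change of 0.37 (-0.16 to 0.89). Its TE (translational efficiency, the footprint RPKM divided by the mRNA RPKM) changed by 1.04 on the log2 scale (0.44 to 1.64). The reciprocal pair gave a small change, since Msi1 in MSI2 cells changed by 0.25 with Dox (0.08 to 0.42). The Msi2 row of the RNA-Seq files rests on a listed length of 112 bases, so its reads come from a small part of the gene.

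Of the members other than the Musashi genes, only Zfp36l2 passed the test of Dox in MSI1 cells. Zfp36l2 (chr17:84583271-84587287, minus strand), an AU-rich element decay factor, was higher with Dox in each of the 3 induced pairs. Without and with Dox it stood at 15.1 and 23.4 RPKM in MSI1 cells at E12.5, at 32.5 and 65.9 in MSI1 cells at E13.5 and at 12.9 and 17.1 in MSI2 cells. In KH2 cells the level was 16.1 without and 13.47 with Dox, and 49.0 without Dox at E13.5. The log2 changes were 0.64 (0.55 to 0.72), 1.02 (0.98 to 1.06) and 0.41 (0.32 to 0.50) in the induced pairs and -0.26 (-0.35 to -0.17) in KH2 cells. As RPKM of counted reads, both MSI1 libraries with Dox lay above all untreated libraries (84.3 to 153). The MSI2 library with Dox lay within that range, and its difference lies within the pair. In MSI1 cells the rise was 0.79 on the log2 scale (SE 0.16, adjusted p = 7.26e-05). In the 3 induced pairs together, with pair as a block, it was 0.66 (SE 0.11, adjusted p = 0.00766), and leaving out each pair in turn gave 0.50 to 0.79, each past the threshold. In the floxed lines Zfp36l2 was at 33.4 and 32.3 RPKM in C4 cells (-0.05, -0.10 to -0.00) and at 37.6 and 36.3 in C1 cells (-0.05, -0.09 to -0.01).

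Across all members, Dox in MSI1 cells gave 3 calls among 32 (Msi1, Msi2 and Zfp36l2) at an adjusted p under 0.05, where 3.60% of the 11938 genes tested were called. The members' median change was 0.01 and that of all genes -0.01. Nova1 (-0.34), Mbnl1 (0.38) and Mbnl2 (0.36) had an unadjusted p under 0.05 and missed the adjusted threshold. This test has 2 libraries a group, 1 residual degree of freedom and a spread shared over all genes, and its libraries are single cultures at different stages, so the p-values measure the spread between these libraries. Without the block for stage, 0 members were called. Among the cell type markers, Snap25 (-1.49), Gfap (-0.77) and Pdgfra (-0.54) were lower with Dox in the same test, and in the 3 induced pairs Snap25 (-1.35) and Pdgfra (-0.65) were lower and S100b (0.83) higher. Their part in the members' values was not tested. In the 3 induced pairs 2 of 32 members were called, Msi1 (1.61, SE 0.29, adjusted p = 0.00988) and Zfp36l2, where 3.21% of 11777 genes were called. Msi2 could not be called there because it moves down in the MSI1 pairs and up in the MSI2 pair.

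Dox itself was the other variable in these pairs. The change in lines with a Musashi cDNA beyond the change in KH2 cells passed the threshold for 0 of 32 members, where 0.00% of 11918 genes were called. In edgeR 578 genes and in DESeq2 293 genes had an unadjusted p under 0.05, and DESeq2 also called 0. Zfp36l2 differed by 0.88 (SE 0.22, unadjusted p = 0.0017, adjusted p = 0.94), Msi1 by 1.62 (unadjusted p = 0.011) and Nova1 by -0.55 (unadjusted p = 0.022). With no filter on low counts Zfp36l2 passed this test (0.87, adjusted p = 0.035), as did Msi1. Only 1 KH2 pair stands against the 3 induced pairs. Msi1, the gene induced in MSI1 cells, was itself not called in the filtered edgeR test (adjusted p = 0.94). The 0 calls there therefore do not show that a member was unmoved. Side by side, the Zfp36l2 change in MSI1 cells at E12.5 exceeded that in KH2 cells by 0.90 (counting interval 0.77 to 1.02) and in MSI2 cells by 0.67 (0.54 to 0.79). Against KH2 cells with Dox, rather than untreated cells of its own line, it was 0.80 higher in MSI1 and 0.35 higher in MSI2 cells with Dox.

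By the 1.5-fold limit within single pairs, which carries no test, few members moved. In KH2 cells 0 of 31 members passed it with Dox (0.944% of all genes). In MSI1 cells at E12.5, 3 of 31 passed (3.38% of genes), Msi1 and Zfp36l2 higher and Msi2 lower. In MSI1 cells at E13.5, 4 of 32 passed (8.22% of genes), the same 3 and Elavl3. In MSI2 cells 1 of 30 passed, Msi2 itself (3.08% of genes). With 4-OHT, 0 of 32 passed in C1 cells (1.43% of genes) and 2 of 32 in C4 cells (5.97% of genes), Msi2 and Zfp36, both lower. Elavl3 (chr9:21819449-21856467, minus strand), the neuronal Hu protein HuC, was at 6.98 and 10.9 RPKM in that E13.5 pair (0.64, 0.53 to 0.74), at 1.65 and 1.69 in MSI1 cells at E12.5, at 1.14 and 1.49 in MSI2 cells and at 1.24 and 1.45 in KH2 cells. It was at 8.74 and 6.43 in C4 cells and 8.27 and 8.46 in C1 cells. At E12.5 Elavl3 was nearly level with Dox in MSI1 cells and higher, within 1.5-fold, in MSI2 and KH2 cells. In edgeR's test of the 3 induced pairs together it was higher by 0.34 (unadjusted p = 0.037, adjusted p = 0.23). Without and with Dox in the same E13.5 pair, the neuron markers summed to 66.7 and 60.0, the intermediate progenitor markers to 191 and 255, the oligodendrocyte lineage markers to 2190 and 3220 and the astrocyte markers to 2480 and 2090 (RPKM of counted reads), and their part in the result was not tested. Zfp36 (chr7:29161803-29164274, minus strand), the founding member of its family, was at 3.48 and 2.10 in C4 cells (-0.73, -0.94 to -0.52) and at 3.32 and 2.61 in C1 cells. Without and with Dox it stood at 2.35 and 1.82 in KH2, at 3.16 and 2.31 in MSI1 at E12.5, at 1.66 and 2.24 at E13.5 and at 1.35 and 2.12 in MSI2 cells. Zfp36 thus moved in both directions among the induced pairs. The other members with a mean of at least 1 RPKM stayed within 1.5-fold in all 6 pairs by this measure, in which 0.5 is added to each RPKM. Without that addition, Zfp36 in the MSI2 pair (0.65) and Cpeb3 in the MSI1 pair at E13.5 (0.69) also lie past it, both at low levels.

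**Figure D2:**
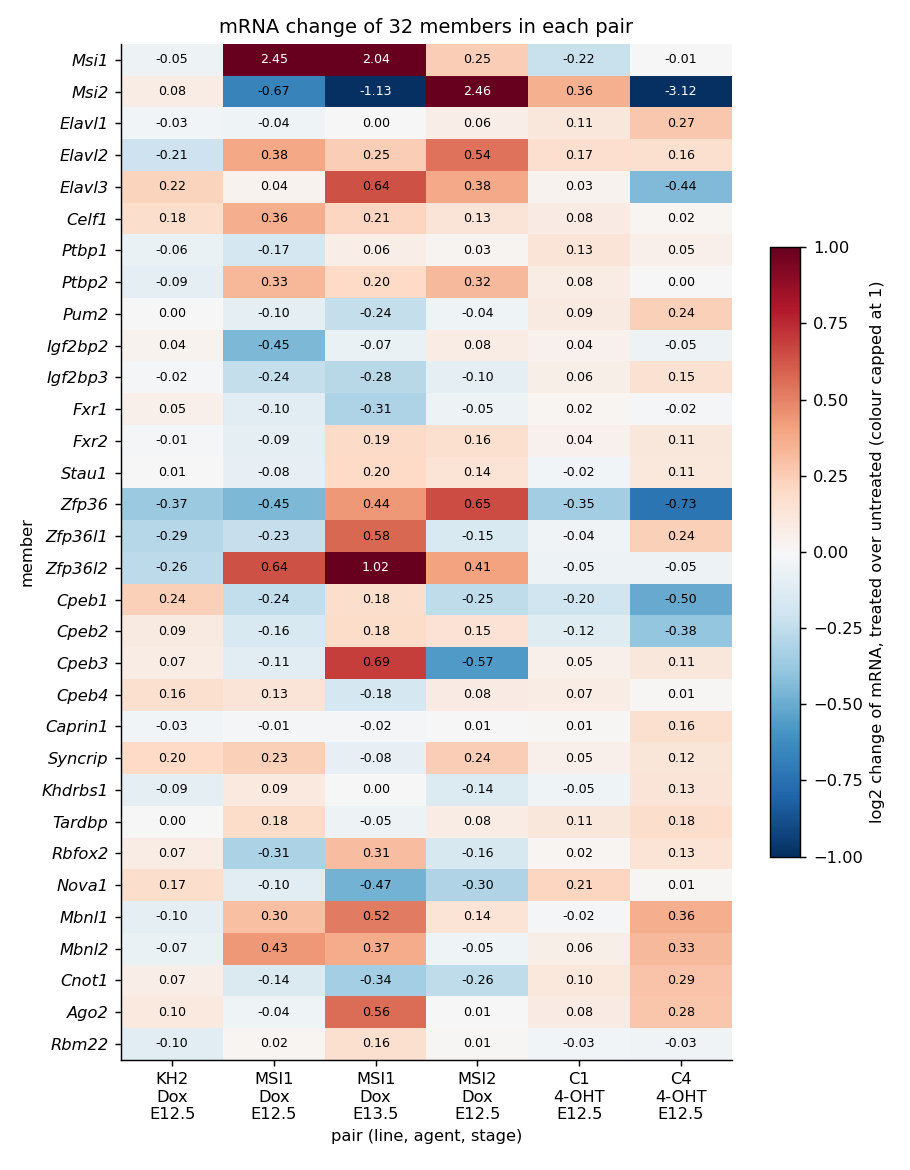
Log2 change of mRNA (ratio of deposited RPKM, treated over untreated) for the 32 tested members in the 6 pairs, 1 library against 1, with colours capped at 1. The cells past 1 in either direction are Msi1 in both MSI1 pairs, Msi2 in the MSI1 pair at E13.5 and in the MSI2 and C4 pairs, and Zfp36l2 in the MSI1 pair at E13.5.

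Footprints and TE were then compared in the 4 pairs with Ribo-Seq, where a member counted as changed if each of the 4 libraries gave it over 5 reads, its TE moved 3-fold or more and its mRNA moved less than 1.5-fold. In KH2 cells 0 of 27 members passed (1.10% of genes). In MSI1 cells 2 of 25 passed (1.29% of genes), Rbm22 lower and Zfp36 higher. The median TE change of the 28 members with enough reads was 0.03 (quartiles -0.13 and 0.42) and that of all genes 0.05, with single members going both ways. Zfp36l2 footprints numbered 149 without and 63 with Dox in MSI1 cells, which per depth is a change of 0.50 (0.08 to 0.93), and its TE changed by -0.13 (-0.56 to 0.30). The Zfp36l2 footprint counts were 51 and 64 in KH2, 348 and 127 in C1 and 174 and 152 in C4 cells.

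Rbm22 (chr18:60720390-60732464, plus strand) kept its mRNA and had fewer footprints with Dox in MSI1 cells. Its mRNA stood at 17.3 and 17.5 RPKM without and with Dox in MSI1 cells at E12.5, 28.4 and 31.8 at E13.5, 19.0 and 19.2 in MSI2, 17.1 and 15.9 in KH2, 46.0 and 45.1 in C1 and 43.1 and 42.0 in C4 cells. The log2 mRNA changes lay between -0.10 and 0.16. The footprint RPKM was 18.8 without and 4.35 with Dox in MSI1 cells (666 and 46 reads), 4.02 and 4.19 in KH2 (55 and 61 reads), 34.5 and 12.7 in C1 (975 and 328 reads) and 9.05 and 6.95 in C4 cells (283 and 197 reads). The TE of Rbm22 changed by -2.13 in MSI1 cells (-2.57 to -1.68), from 1.09 to 0.249, and was 0.236 and 0.263 in KH2 cells. The induced MSI1 library therefore lay at the level of both KH2 libraries, and the untreated MSI1 library stood apart from them. Among all genes, the TE of untreated Rbm22 was at percentile 95.2 in MSI1, 39.3 in KH2, 67.4 in C1 and 71.8 in C4 cells. Against KH2 cells with Dox, the TE of Rbm22 in MSI1 cells with Dox differed by -0.08. The samples hold no second untreated MSI1 Ribo-Seq library, so the spread of this value between libraries is unknown.

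By the same limits Zfp36 TE was higher with Dox in MSI1 cells, at 0.106 without and 0.485 with Dox (2.20, 0.83 to 3.57), on 9 footprints in each library. At that depth it is not counted with a limit of more than 20 reads, and against KH2 cells with Dox the difference was 0.29.

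In C1 cells, which lack Cre, 4-OHT went with a TE change of -1.46 in the median of all genes, where 38.5% of genes passed the limits and 9 of 31 members did, all lower. These were Elavl2, Ptbp2, Pum2, Igf2bp2, Igf2bp3, Stau1, Cpeb1, Syncrip and Cnot1, with log2 changes from -1.63 for Syncrip to -3.96 for Pum2. The median of the members was -1.45. Counted reads made up 28.5% of the Ribo-Seq reads in untreated C1 cells and 11.2% with 4-OHT. Untreated first, the shares were 7.53 and 7.46% in C4 cells and 10.8 and 7.85% in MSI1 cells. They were 32.1 and 12.3% in KH2 cells, whose median TE change was 0.145. The part of this share in the C1 shift was not tested. With each pair centred on its median, Pum2 stayed past the limit, and Zfp36 passed it as well because its TE changed by 0.16 where most genes fell. Pum2, a Pumilio repressor, had 144 footprints without and 9 with 4-OHT over only 51 counted bases. In C4 cells, which carry Cre, the median of all genes was -0.23, that of the members -0.29, and 2 of 28 members passed (2.60% of genes), Rbfox2 and Elavl3, both lower. Rbfox2 (chr15:76909420-77137483, minus strand), a neural splicing regulator, had 86 footprints without and 20 with 4-OHT in C4 cells, with mRNA at 15 and 16.45 RPKM, and its TE changed by -2.10 (-2.81 to -1.38). In C1 cells it had 204 and 70 footprints and its TE changed by -1.43 (-1.84 to -1.01). Relative to the median of each pair these are -1.86 in C4 and 0.03 in C1 cells. Rbfox2 had 41 and 54 footprints in KH2 and 140 and 31 in MSI1 cells, untreated first, in libraries of unequal depth. Per depth these are log2 changes of 0.31 (-0.28 to 0.89) in KH2 and -0.43 (-0.99 to 0.13) in MSI1 cells. Elavl3 had 55 and 12 footprints in C4 cells (TE -1.61, -2.52 to -0.70), 110 and 39 in C1, 22 and 9 in MSI1 and 4 in each KH2 library. Per depth, Elavl3 footprints changed by -2.06 in C4, -1.36 in C1 and 0.46 (-0.662 to 1.575) in MSI1 cells. Set against C1 cells with 4-OHT in place of untreated C4 cells and centred, 0 members passed. Each of these values is 1 library against 1.

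**Figure D3:**
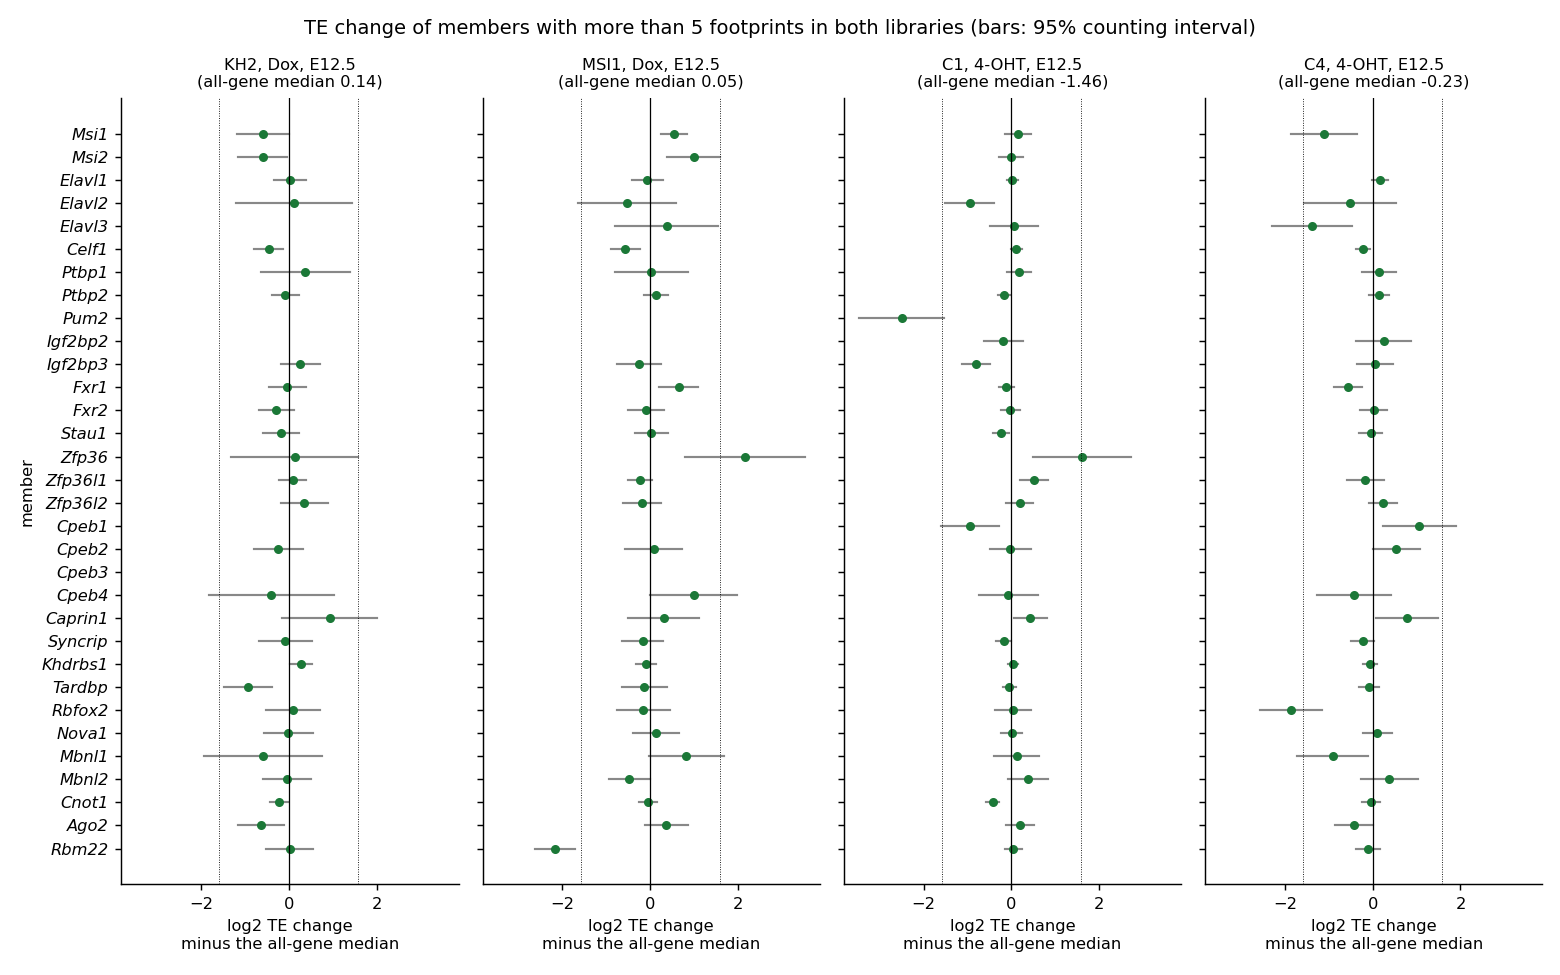
Log2 change of TE in the 4 Ribo-Seq pairs, less the median of all genes in that pair, for members with more than 5 footprints in both libraries. Bars are 95% counting intervals and dotted lines mark 3-fold. Rbm22 in MSI1 cells (-2.17) and Pum2 in C1 cells (-2.50) lie outside on the low side, with Rbfox2 (-1.86) and Zfp36 in MSI1 cells (2.15) among the others.

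The 5 members without an RNA-Seq row have footprints but no TE. Celf2, a CUG-binding splicing and stability factor, had 102 and 100 footprints in KH2, 294 and 61 in MSI1, 562 and 109 in C1 and 70 and 102 in C4 cells, untreated first. Relative to the median of all genes the changes were -0.22, -0.55, -0.79 and 0.82. Fmr1, the fragile X repressor, had 38 and 55, 110 and 55, 668 and 202, and 140 and 141 footprints in the same order, with changes of 0.35, 0.71, -0.15 and 0.29. Elavl4 had 3 to 57 footprints and Stau2 0 to 36. Lin28b had 0 footprints in all 8 libraries, with 657288 to 6381242 counts behind each 0.

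In untreated cells the TE of a member can be placed among all genes of the same library, although the counted exons of the assays coincide for only 8 members, so the order between genes is a description. The median percentile of the members was 65.9 in KH2, 62.0 in MSI1, 67.3 in C1 and 58.1 in C4 cells. Ptbp1 (percentiles 86.5 to 95), Syncrip (83.4 to 94.1), Elavl1 (80.5 to 89.7), Rbfox2 (78.5 to 87.7) and Msi2 (73.4 to 92.2) were high in all 4 lines. Zfp36l2 (5.95 to 18.1) and Caprin1 (5.40 to 28.0), a stress granule protein, were low in all 4. Of these high and low members, only Elavl1 is among the 8 whose counted exons coincide. The listed footprint and RNA-Seq lengths were 81 and 940 bases for Ptbp1, 101 and 609 for Caprin1 and 2559 and 1375 for Zfp36l2. The part of these lengths in the percentiles was not tested. Elavl2 was at 75.9 to 85.2 in KH2, MSI1 and C1 cells and at 15.2 in C4 cells, and Fxr1 ranged from 7.71 in MSI1 to 76.9 in C1 cells.

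More members differed between stages and between lines than with Dox. In KH2 and MSI1 cells matched for treatment (3 libraries against 3, with line and treatment as a block), 20 of 32 members differed between E13.5 and E12.5, 13 higher and 7 lower, where 54.9% of 11840 genes were called. Between untreated floxed lines (C1 and C4) and untreated inducible lines (KH2, MSI1 and MSI2), 19 of 32 members differed, 12 higher and 7 lower in the floxed lines, where 66.3% of 12211 genes were called. The share of members called is near the background in both. The median member change was 0.13 with stage, against -0.01 for all genes. Both contrasts coincide with the step in the counted share of reads, so stage or line and sequencing set cannot be told apart. The 3 libraries of each stage are KH2 cells without Dox and MSI1 cells without and with Dox. The MSI1 line thus enters each stage more than once. In both contrasts the p-values measure the spread between these single libraries. The levels below are RPKM of counted reads. The 6 inducible E12.5 libraries are listed in the order KH2, KH2 with Dox, MSI1, MSI1 with Dox, MSI2 and MSI2 with Dox, the 3 E13.5 libraries as KH2, MSI1 and MSI1 with Dox, and the 4 floxed ones as C1, C1 with 4-OHT, C4 and C4 with 4-OHT.

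**Figure D4:**
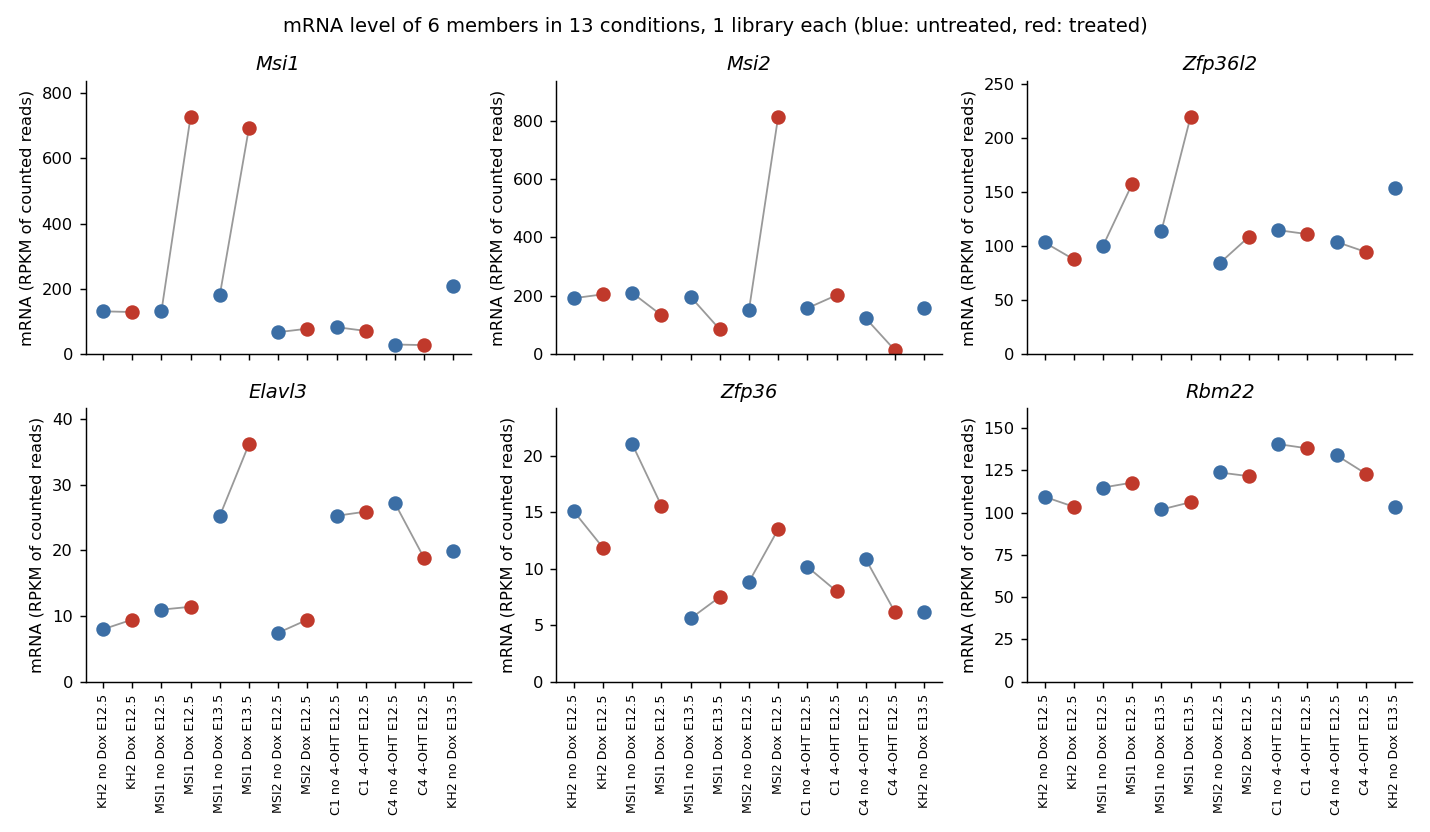
mRNA level (RPKM of counted reads) of Msi1, Msi2, Zfp36l2, Elavl3, Zfp36 and Rbm22 in the 13 conditions, with untreated libraries in blue, treated ones in red and lines joining pairs. Zfp36l2 rises in each induced pair, up to 219.9 in MSI1 cells with Dox at E13.5, and Rbm22 stays between 102 and 141.

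Among the Zfp36 decay factors the family changed its leading member between lines. Zfp36l1 stood at 422, 352, 526, 455, 401 and 351 in the inducible lines at E12.5, at 242, 245 and 341 at E13.5 and at 77.6, 75.8, 66.4 and 73.6 in C1 and C4 cells. Zfp36l1 (chr12:81208747-81214000, minus strand) led the family in the inducible lines, fell by 0.77 at E13.5 (SE 0.13, adjusted p = 0.000415) and was lower in the floxed lines (log2 difference -2.64, SE 0.15, adjusted p = 3.41e-05), without overlap of the groups, so that Zfp36l2 led there. For Zfp36 the levels were 15.1, 11.8, 21.0, 15.6, 8.82 and 13.48 at E12.5, 6.18, 5.58 and 7.49 at E13.5 and 10.2, 7.99, 10.8 and 6.15 in the floxed lines. Zfp36 fell by 1.44 at E13.5 (SE 0.20, adjusted p = 9.51e-05) and differed by -0.52 in the floxed lines (adjusted p = 0.21). Zfp36l2 mRNA was at 103, 87.7, 100.3, 158, 84.3 and 109 at E12.5, at 153, 114 and 219.9 at E13.5 and at 115, 111, 104 and 94.6 in the floxed lines. Zfp36l2 was higher by 0.41 at E13.5 (SE 0.11, adjusted p = 0.00775), and without the KH2 pair that call was lost (0.34, adjusted p = 0.053).

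Of the Hu proteins, Elavl3 showed the larger stage difference. Elavl3 stood at 7.97, 9.45, 10.97, 11.4, 7.44 and 9.43 in the inducible lines at E12.5, at 19.96, 25.2 and 36.2 at E13.5 and at 25.3, 25.9, 27.2 and 18.8 in C1 and C4 cells. It was higher by 1.39 at E13.5 (SE 0.15, adjusted p = 2.2e-05) and by 1.57 in the floxed lines (SE 0.19, adjusted p = 0.000486). The neuron markers summed to 45.6 to 62.8 in the E12.5 libraries of the stage comparison and to 60.0 to 66.7 at E13.5, and to 74.8 and 80.5 in untreated C1 and C4 cells, and their part in the result was not tested. For Elavl1 the levels were 134, 133, 122, 119.9, 109 and 111 at E12.5, 174, 159 and 149 at E13.5 and 236, 255, 241 and 274 in the floxed lines. Elavl1, the ubiquitous stabilizing factor HuR, led the family, with differences of 0.36 by stage (adjusted p = 0.011, and 0.081 without the untreated MSI1 pair) and 0.98 by line (SE 0.10, adjusted p = 0.000292). Elavl2 mRNA was at 13.2, 11.6, 13.7, 18.1, 9.05 and 12.8 at E12.5, at 12.3, 15.4 and 16.9 at E13.5 and at 23.1, 26.1, 29.2 and 30.7 in the floxed lines. Elavl2 was higher by 1.12 in the floxed lines (SE 0.24, adjusted p = 0.00592) and did not pass by stage (0.00, adjusted p = 0.99).

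In the Cpeb family 2 of 4 members passed, in opposite directions. Cpeb1 stood at 2.08, 2.49, 4.38, 3.75, 3.31 and 2.71 in the inducible lines at E12.5, at 5.02, 5.38 and 5.52 at E13.5 and at 37.1, 32.4, 33.8 and 22.5 in C1 and C4 cells. Cpeb1 (chr7:88491912-88600351, minus strand), the cytoplasmic polyadenylation factor, was higher by 3.41 in the floxed lines (SE 0.25, adjusted p = 7.77e-05), the largest line difference among the members, and by 0.66 at E13.5 (adjusted p = 0.034), a call lost without the KH2 pair (0.42, adjusted p = 0.19) or without the MSI1 pair with Dox (0.71, adjusted p = 0.067). For Cpeb2 the levels were 68.7, 74.1, 79.0, 71.8, 55.8 and 60.2 at E12.5, 33.3, 40.9 and 43.9 at E13.5 and 31.4, 28.9, 37.6 and 27.2 in the floxed lines. Cpeb2 fell by 0.90 at E13.5 (SE 0.11, adjusted p = 5.62e-05) and was lower in the floxed lines (-0.97, SE 0.17, adjusted p = 0.00245). Cpeb3 (4.87 to 9.34) and Cpeb4 (40.2 to 62.7) passed neither test, and Cpeb2 had the highest untreated mean of the family.

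The Igf2bp genes split by line. Igf2bp2 mRNA was at 21.0, 21.8, 13.1, 9.70, 9.63 and 9.89 at E12.5, at 19.2, 22.6 and 20.6 at E13.5 and at 43.6, 44.9, 39.8 and 36.2 in the floxed lines. Igf2bp3 stood at 99.8, 99.8, 89.2, 76.5, 103 and 93.9 in the inducible lines at E12.5, at 101, 92.8 and 72.5 at E13.5 and at 46.7, 48.7, 35.2 and 36.8 in C1 and C4 cells. Igf2bp2 (chr16:22059082-22163372, minus strand) was higher in the floxed lines by 1.52 (SE 0.28, adjusted p = 0.00324) and at E13.5 by 0.55 (adjusted p = 0.040, lost without the MSI1 pair with or without Dox). Igf2bp3 (chr6:49035220-49164953, minus strand), the highest of the family, was lower in the floxed lines (-1.25, SE 0.15, adjusted p = 0.000495) and differed by 0.00 with stage (adjusted p = 1.00). Among the fragile X genes, Fxr1 stood at 268, 281, 296, 279, 349 and 327 in the inducible lines at E12.5, at 177, 234 and 177 at E13.5 and at 203, 206, 208 and 194 in C1 and C4 cells. Fxr1, the highest of the family, was lower at E13.5 (-0.53, adjusted p = 0.00139) and in the floxed lines (-0.57, adjusted p = 0.00799, lost without C1 or without C4). Fxr2 mRNA was at 129, 130, 123, 116, 113 and 123 at E12.5, at 154, 154 and 164 at E13.5 and at 149, 154, 145 and 147 in the floxed lines. Fxr2 was higher by 0.36 and 0.27 (adjusted p = 0.014 and 0.030), with the stage call lost without the untreated MSI1 pair (adjusted p = 0.068) and the line call lost without C1, without C4 or without MSI1.

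The polypyrimidine-tract proteins changed with stage in opposite directions. Ptbp1 stood at 182, 177, 158, 142, 208 and 206 in the inducible lines at E12.5, at 241, 189.5 and 187 at E13.5 and at 258, 283, 272 and 265 in C1 and C4 cells. For Ptbp2 the levels were 192, 183, 189, 242, 142 and 174 at E12.5, 111, 137 and 148 at E13.5 and 182, 192, 169 and 159 in the floxed lines. Ptbp1, the progenitor form and the higher of the pair, was higher by 0.36 at E13.5 (adjusted p = 0.011, lost without the KH2 pair) and by 0.54 in the floxed lines (adjusted p = 0.011, lost without C4). Ptbp2, the neuronal form, fell by 0.66 at E13.5 (SE 0.11, adjusted p = 0.000364) and differed by 0.01 with line (adjusted p = 0.97). Celf1 mRNA was at 109, 126, 114, 149, 124 and 132 at E12.5, at 158, 177 and 194 at E13.5 and at 221, 235, 228 and 217 in the floxed lines. Celf1 was higher by 0.51 at E13.5 (adjusted p = 0.00170) and by 0.95 in the floxed lines (adjusted p = 0.000204). Pum2 (129 to 177) and Stau1 (124 to 161) passed neither test.

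In the splicing group the Mbnl genes and Rbfox2 diverged. Mbnl1 stood at 24.1, 22.8, 30.3, 37.8, 24.7 and 26.6 in the inducible lines at E12.5, at 48.2, 41.4 and 56.5 at E13.5 and at 55.9, 55.1, 53.6 and 64.9 in C1 and C4 cells. For Mbnl2 the levels were 81.8, 79.2, 88.2, 121, 106 and 99.5 at E12.5, 73.3, 71.2 and 87.3 at E13.5 and 45.9, 47.9, 52.2 and 61.6 in the floxed lines. Mbnl1 was higher by 0.67 at E13.5 (adjusted p = 0.00182) and by 1.05 in the floxed lines (adjusted p = 0.000487). Mbnl2 was lower at E13.5 (-0.31, adjusted p = 0.029, lost without the MSI1 pair with or without Dox) and in the floxed lines (-0.90, adjusted p = 0.00195). Rbfox2 mRNA was at 72.3, 77.2, 89.8, 73.2, 84.3 and 73.5 at E12.5, at 49.5, 47.9 and 55.1 at E13.5 and at 43.5, 44.1, 46.7 and 48.2 in the floxed lines. Rbfox2 fell by 0.63 at E13.5 (adjusted p = 0.00257, 0.054 without the untreated MSI1 pair) and was lower in the floxed lines (-0.87, adjusted p = 0.00126). Nova1, the highest of the splicing group, was at 67.9 to 124 and passed neither test.

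Granule and hnRNP proteins were among the most abundant members and mostly higher in the floxed lines. Caprin1 stood at 509, 507, 492, 493, 458 and 448 in the inducible lines at E12.5, at 516, 570.4 and 528 at E13.5 and at 779, 788, 729 and 768 in C1 and C4 cells. Caprin1 had the highest untreated mean of all members and was higher by 0.63 in the floxed lines (adjusted p = 0.000773). For Syncrip the levels were 132, 154, 132, 157, 146 and 169 at E12.5, 194, 217 and 194 at E13.5 and 238, 246, 246 and 252 in the floxed lines. Syncrip was higher by 0.53 at E13.5 (adjusted p = 0.00180) and by 0.83 in the floxed lines (adjusted p = 0.000344). Khdrbs1 mRNA was at 308, 295, 282, 305, 296 and 262 at E12.5, at 423, 423 and 402 at E13.5 and at 354, 344, 312 and 322 in the floxed lines. Khdrbs1 (Sam68) was higher by 0.48 at E13.5 (adjusted p = 0.00179). Tardbp stood at 242, 247, 212, 244, 232 and 238 in the inducible lines at E12.5, at 259.8, 296 and 268 at E13.5 and at 393, 424, 416 and 443 in C1 and C4 cells. Tardbp (TDP-43) was higher by 0.82 in the floxed lines (adjusted p = 0.000413). Of the silencing effectors, Ago2 stood at 29.3, 31.9, 33.8, 33.2, 30.6 and 29.9 in the inducible lines at E12.5, at 41.9, 40.5 and 56.1 at E13.5 and at 33.1, 35.1, 30.6 and 35.0 in C1 and C4 cells, and Cnot1 stood at 129, 137, 138, 127, 152 and 124 in the inducible lines at E12.5, at 111, 130.1 and 96.5 at E13.5 and at 106, 114, 105 and 121 in C1 and C4 cells. Ago2, the slicer Argonaute, was higher at E13.5 by 0.51 (adjusted p = 0.00409), and Cnot1, the higher of both effectors, was lower in the floxed lines (-0.40, adjusted p = 0.012, lost without C1 or without C4).

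The inducing genes and Rbm22 on the same scale were as follows. Msi1 stood at 131, 129, 131, 728, 67.2 and 77.8 in the inducible lines at E12.5, at 209.6, 181 and 693 at E13.5 and at 82.6, 71.0, 29.4 and 27.6 in C1 and C4 cells. Msi1 was higher by 0.35 at E13.5 (SE 0.13, adjusted p = 0.044), a call lost without the KH2 pair (0.20, adjusted p = 0.28) or without the untreated MSI1 pair, and it differed by -0.97 in the floxed lines (SE 0.47, adjusted p = 0.11), with untreated C4 cells at the lowest level of the untreated libraries. For Msi2 the levels were 192, 205, 210.0, 134, 152 and 814 at E12.5, 159.6, 197 and 84.7 at E13.5 and 158, 202, 123 and 13.3 in the floxed lines. Msi2, with a higher untreated mean than Msi1, passed neither test (-0.32 and -0.40). Rbm22 mRNA was at 109, 104, 115, 118, 124 and 122 at E12.5, at 103, 102 and 106 at E13.5 and at 141, 138, 134 and 123 in the floxed lines. Rbm22 differed by -0.14 with stage (adjusted p = 0.28) and 0.24 with line (adjusted p = 0.059).

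**Figure D5:**
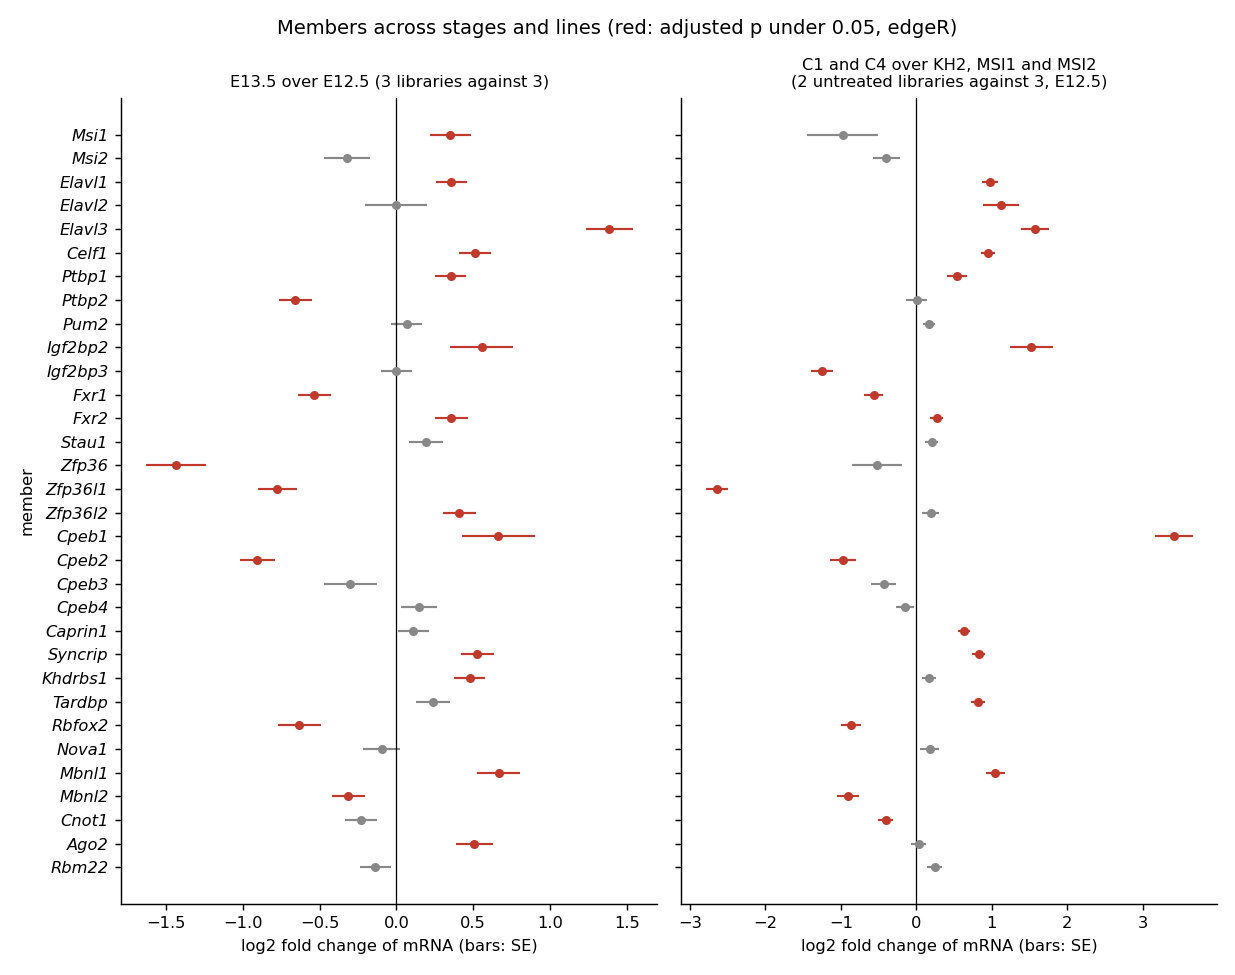
Log2 difference of mRNA with its standard error for the 32 tested members, E13.5 against E12.5 (3 libraries against 3) and floxed against inducible untreated lines (2 against 3), with red points at an adjusted p under 0.05. Zfp36l1 and Cpeb1 lie at opposite ends of the line comparison (-2.64 and 3.41), and Zfp36 and Elavl3 at opposite ends of the stage comparison (-1.44 and 1.39).

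Genes that work with the members were counted from 4 lists. In none of the 3 Dox tests was a gene of any list called. Of 27 tested paralogues and partners of the members, 12 were higher at E13.5 (Celf5, G3bp1, Hnrnpd, Hnrnpr, Khsrp, Larp1, Larp4, Nova2, Pabpc4, Rc3h2, Samd4b, Upf1) and 2 lower (Khdrbs3, Ybx1), with a list median of 0.18. Over all genes 54.9% were called by stage and 66.3% by line, and the list counts are given as descriptions beside those shares. Of 31 tested in the line comparison, 16 were higher in the floxed lines (Celf5, Celf6, G3bp1, G3bp2, Hnrnpd, Hnrnpr, Khdrbs2, Larp1, Larp4, Larp4b, Mbnl3, Pabpc4, Samd4, Samd4b, Trim71, Upf1) and 7 lower (Khdrbs3, Nova2, Pabpc1, Rc3h1, Rc3h2, Tia1, Ybx1). Celf5, Nova2 and Samd4b also passed 1.5-fold higher with Dox in MSI1 cells at E13.5, among 26, where 8.22% of all genes passed.

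The counts in the other 3 lists are descriptions too, beside the same shares of all genes called, 54.9% by stage and 66.3% by line. Of 23 deadenylation, decapping and decay genes, 6 were higher at E13.5 (Cnot10, Dcp2, Edc4, Pan2, Pan3, Patl1) and 9 lower (Btg1, Btg2, Cnot6, Cnot6l, Cnot7, Cnot8, Parn, Tob1, Xrn1), with a list median of -0.15. The lower genes include the deadenylase subunits Cnot6, Cnot6l, Cnot7 and Cnot8 and the higher ones include the deadenylase Pan2. In the floxed lines 3 were higher (Cnot10, Lsm1, Patl1) and 9 lower (Btg1, Btg2, Cnot6l, Cnot8, Ddx6, Pan2, Tob1, Tob2, Xrn1). Of 12 miRNA pathway genes with an RNA-Seq row, Ago2 among them, 9 were higher at E13.5 (Dgcr8, Dicer1, Drosha, Eif2c2, Eif2c3, Tarbp2, Tnrc6a, Tnrc6b, Xpo5) and 0 lower (list median 0.46). In the floxed lines the miRNA production genes Dgcr8, Dicer1, Drosha and Xpo5 were higher and the effectors Eif2c1, Eif2c4, Tnrc6b and Tnrc6c lower. Of 14 spliceosomal partners of Rbm22, 5 were higher at E13.5 (Isy1, Prpf19, Prpf3, Prpf4, Prpf8) and 0 lower, and in the floxed lines 7 were higher (Aqr, Bud31, Cwc22, Prpf19, Prpf3, Prpf4, Prpf8) and 2 lower (Cdc5l, Slu7).

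For TE, 0 list genes passed 3-fold in KH2 cells. In MSI1 cells with Dox, Prpf3 alone passed, higher, among 12 spliceosomal partners. With 4-OHT in C4 cells, Rc3h2, Btg1 and Slu7 passed, lower. In C1 cells, where the whole library shifted and 38.5% of all genes passed, 11 of 25 paralogues and partners, 13 of 23 decay genes (Cnot4, Cnot6, Cnot8, Btg1, Parn, Dcp1a, Dcp2, Edc3, Edc4, Ddx6, Patl1, Lsm1, Xrn1), 6 of 11 miRNA pathway genes (Eif2c1, Tnrc6a, Dicer1, Drosha, Dgcr8, Xpo5) and 9 of 14 spliceosomal partners (Prpf3, Prpf4, Prpf8, Cwc15, Cwc22, Cwc27, Plrg1, Aqr, Slu7) passed, all lower.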

How the data were processed

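Poly(A)+ RNA (14 libraries) and monosome-protected RNA (8 libraries) of mouse cortical NSCs were sequenced. For each gene the authors deposited read counts, not normalized, and RPKM values, which are the count scaled by the listed length and a read total fixed for each library. The submitters' processing notes name mm9, Bowtie and TopHat, with no versions. For Ribo-Seq both values cover listed coding exons. Samples were grouped by their labels. The 38 members, the 4 lists of partner genes and the cell type markers were chosen with earlier results of these data known, and they support nothing by themselves. Values in every library are given for Msi1, Msi2, Rbm22, each member past a test and each member past a fold limit. The names of the paralogues and partners past the TE limit in C1 cells are not reported here.

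RNA-Seq counts were tested with edgeR 4.0.16 (quasi-likelihood, TMM, genes at 1 CPM or more in at least 2 or 3 libraries, Benjamini-Hochberg over all genes, threshold 0.05) in R 4.3.3, with DESeq2 1.42.0 as an alternative, and the tests were tried on simulated data. SE is the log2 change divided by the square root of F. In single pairs, mRNA was compared as log2 ratios of RPKM after adding 0.5, past 1.5-fold at a mean RPKM of at least 1. TE calls needed over 5 reads in each of the 4 libraries, a 3-fold TE change and mRNA within 1.5-fold. The 95% intervals came from read counts by the delta method and cover counting error only. Pairs of 1 library have no replicate check. Motifs were searched in the longest 3′ UTR of at least 50 bases of the NCBIM37 (mm9) annotation. The technical replicates of untreated MSI1 cells had a ratio of chi-square to degrees of freedom of 1.69 (12524 genes) and were summed. Python 3.11.15 with pandas 2.3.3 and matplotlib 3.10.9 was used. Alternatives were other size factors, no filter, no block, each pair or library left out, other pseudocounts and limits, centring on the median, treated control cells as the control and, chosen after seeing the data, that control together with centring.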

Additional observations from a re-analysis of the deposited data

How the results depend on the processing

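Of the counts of members called and the motif and TE summaries, 81 stayed near the reported value (within 1.5 times for counts) under the alternatives and 27 did not. None of the values checked reversed. Of the changes of single members past a test or limit, 384 values stayed the same, 37 were weaker and 24 moved. Changes within the limits were not checked in this way. Against KH2 cells with Dox, Msi1 mRNA differed by -0.69 in MSI2 cells. Zfp36 mRNA differed by 0.35 in MSI1 cells at E12.5. Both signs were opposite to the change within the pair. Without the block, 0 members passed in MSI1 cells and 0 in the 3 induced pairs, where DESeq2 called 1 (Zfp36l2, not Msi1). DESeq2 called 104 genes in all in MSI1 cells against 430, and Zfp36l2 stayed called in the 3 induced pairs with any 1 pair left out. Without a filter on low counts, 953 genes against 378 passed there, and 2 members passed beyond Dox. Leaving out a pair gave 0 to 1 members beyond Dox (Msi1). In single pairs at 2-fold, 1 member passed in MSI1 cells at E12.5 and 1 in C4 cells by mRNA, and 1, 29 and 4 by TE in KH2, C1 and C4 cells. For MSI2, adding 0.1 gave 2 (Msi2 and Zfp36), and for C4, adding 2 or a mean RPKM of at least 5 gave 1. With KH2 cells with Dox as the control, centred or not, 5 members passed by mRNA in MSI1 cells. Msi1, Zfp36l2 and Mbnl1 were higher there, and Msi2 and Igf2bp2 lower. In MSI2 cells 3 passed, Msi2 higher and Msi1 and Igf2bp2 lower. By TE 0 passed in MSI1 cells. At more than 20 reads, TE left 1 in MSI1 cells (Rbm22) and 0 in C4 cells. Centring on the median left 2 by TE in C1 and 1 in C4 cells, and C1 cells with 4-OHT as the control gave 4 in C4 cells, or 0 when centred. TAG alone stood at 12.6 per 1000 bases in the members' median 3′ UTR, where all genes had 11.1. Where not stated, the cause was not tested.

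Depth limits the Ribo-Seq values. The induced MSI1 library held 657288 counts, and members under 6 footprints have no TE call. Each single-pair value has no replicate, and the C1 shift of -1.46 with 4-OHT occurred without Cre.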
